A study of Danio rerio with 6 samples.

Results

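The genes of retinoic acid synthesis, clearance and reception were examined in sorted zebrafish atrial cardiomyocytes (CMs) at 72 and 48 hours post fertilization (hpf). They were the rows of the deposited count table whose Ensembl symbol is aldh1a2, dhrs3a, dhrs3b, cyp26a1, cyp26b1, cyp26c1, raraa, rarab, rarga or rargb, that is 10 of 23000 genes, chosen by name. The study sequenced RNA in bulk to look for genes that change as the atrial wall begins to form, with 3 libraries at 72 hpf and 3 at 48 hpf. All animals are labelled wild-type, and at both stages they carried reporters for atrial CMs (myh6:mTagBFP2), for ventricular CMs (myh7:mCherry-NTR) and for Wnt/β-catenin activity driving eGFP. Pooled hearts were dissected and dissociated, and live cells with high mTagBFP2, low or no mCherry and no eGFP were sorted, so that cells of the atrioventricular canal and sinoatrial node were to be left out. The cells of replicates 1 and 2 came from a BD FACSAria and a BigFoot sorter, and those of replicate 3 from the BigFoot only. The study states that such cells are few, and that RNA quality checks were left out because little RNA was obtained.

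Retinoic acid is made from vitamin A in a pair of oxidation steps. Retinol dehydrogenases such as Rdh10 form retinal, and the retinal dehydrogenase Aldh1a2 turns retinal into retinoic acid, while Dhrs3 reduces retinal back to retinol. Cyp26 enzymes, cytochrome P450 hydroxylases, inactivate retinoic acid. Within the nucleus, retinoic acid receptors (Rar) bind DNA together with retinoid X receptors (Rxr) and switch target genes between repression and activation according to the ligand. In zebrafish embryos the signal limits the number of cardiac progenitors, and in the mouse it is needed for the posterior, atrial part of the heart tube. In the later zebrafish heart, aldh1a2 is also widely used as a marker of the epicardium and of activated endocardium.

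The libraries held 3577234 to 4541886 counts at 72 hpf and 3694451 to 5629941 at 48 hpf, so that a floor of 3 counts stood for 0.661 to 0.839 and 0.533 to 0.812 CPM (counts scaled to the size of the library), a limit that covers counting error only. Levels below are CPM after TMM normalization, which also rescales each library by a factor (0.988 to 1.02 here) estimated from the bulk of its genes. Exon lengths were not used here, so levels are compared between stages and not between genes. The 5 atrial markers myh6, nppa, smtnl1, tbx5a and nr2f1a were counted in every library and summed to 3060 to 3619 CPM at 72 hpf and 2488 to 3582 CPM at 48 hpf. The counts of the highest, myh6 (6919 to 7877) and nppa (2399 to 2632), varied less than the library totals. The sum was lowest in the largest library, replicate 2 at 48 hpf, and highest in the smallest, replicate 3 at 72 hpf. It is thus not read as a measure of atrial content, and the reason was not tested. Markers of other cells were present as well, and 3 of these sums were lower at 72 hpf without overlap of the stages. The 10 leukocyte markers summed to 0.280 to 75.0 CPM at 72 hpf and 294 to 678 CPM at 48 hpf (4 of the 10 never above 3 counts at 72 hpf, cd74b at 0). The 5 ventricular markers summed to 820 to 1131 CPM at 72 hpf and 1218 to 1993 CPM at 48 hpf (irx4a at 0 throughout), and the 4 atrioventricular canal markers to 620 to 768 CPM at 72 hpf and 967 to 1128 CPM at 48 hpf. Not every gene of these lists followed its sum. The counts of myh7l were 91, 137 and 96 at 72 hpf, against 899, 769 and 1173 at 48 hpf, but those of nppb were 1245, 1162 and 1171, against 1204, 1192 and 1175. Like those of myh6 and nppa, the counts of nppb varied less than the library totals, so nppb is not read as unchanged. For has2 they were 16, 0 and 0 at 72 hpf, against 253, 914 and 259 at 48 hpf, but for tbx2a 675, 410 and 346, against 561, 521 and 525. The 6 neuronal markers summed to 54.5 to 130 CPM at 72 hpf and 81.2 to 185 CPM at 48 hpf, with overlap. Of these, elavl3, gap43 and sncb had 0 counts at 72 hpf, and elavl3 had 135, 376 and 51 at 48 hpf. The other neuronal markers remained at 72 hpf. For elavl4 the counts were 473, 405 and 150 at 72 hpf, against 407, 385 and 137 at 48 hpf. For snap25a they were 53, 57 and 45, against 34, 65 and 40, and for stmn1b 65, 40 and 0, against 69, 215 and 65. The 6 erythrocyte markers summed to 2.20 to 75.5 CPM at 72 hpf and 6.99 to 258 CPM at 48 hpf, with overlap. In bulk libraries, fewer cells of a type and less RNA per cell cannot be told apart.

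Of the 10 genes, 6 passed the filter of a mean normalized count above 5 and were tested. The other 4 (cyp26a1, cyp26c1, dhrs3a and rargb) had 0 counts in all 3 libraries at 72 hpf and exceeded 3 counts in only 1 library each at 48 hpf. After adjustment over all 16100 genes tested, edgeR's quasi-likelihood test called 0 of the 6 higher and 0 lower at 72 hpf, against 0.00621% and 0% of all genes (a call needed an adjusted p-value under 0.05 together with a change of more than 1.5-fold). At an unadjusted p-value under 0.05, 1 of the 6 was higher (aldh1a2) and 1 was lower (dhrs3b), while 3.12% of all genes were higher and 5.63% lower. DESeq2, the tool of the study's methods, called 0 of the 6 higher and 1 lower (dhrs3b), against 1.27% and 2.88% of all genes. On data simulated from these libraries with few changed genes, more of the calls of DESeq2 fell on unchanged genes than on changed ones. On the same data edgeR called a minority of the changed genes. The spread between the simulated libraries was drawn from edgeR's own estimates, so the simulation does not rank the tools. The split of the DESeq2 calls also depends on how many genes were changed in the simulation. That split thus does not give the share of false calls here. The DESeq2 calls are given below as a description. The estimate was higher at 72 hpf for aldh1a2 and lower for the other 5, with a median log2 fold change of -0.82 beside -0.02 over all genes tested.

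**Figure D1:**
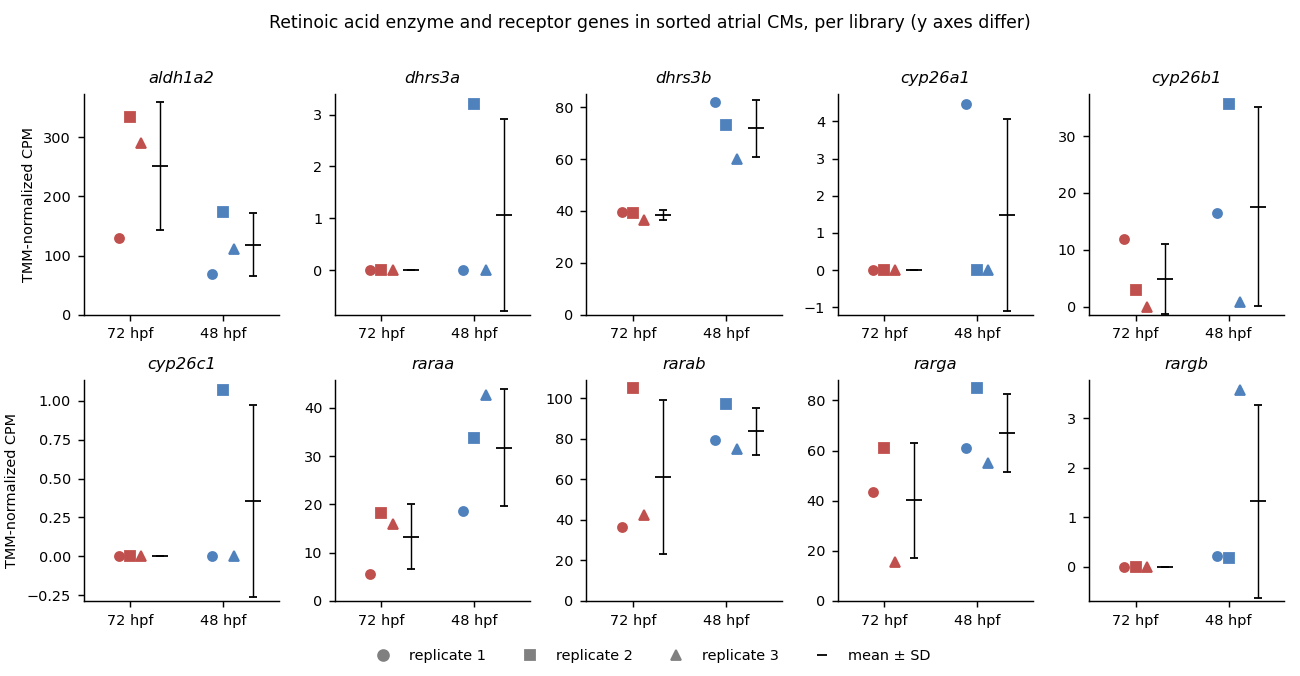
TMM-normalized CPM (y axis, a different scale in each panel) of the 10 genes in the 3 libraries at 72 hpf (red) and the 3 at 48 hpf (blue), with the mean and SD beside them. The dhrs3b points at 72 hpf lie between 36.4 and 39.7 CPM, all below the 48 hpf points of 60.0 to 82.2 CPM, whereas cyp26a1, cyp26c1, dhrs3a and rargb are at 0 in all 72 hpf libraries.

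The retinoic acid synthesis gene aldh1a2 (ENSDARG00000053493, chromosome 7 of danRer11 from 30326184 to 30367650, minus strand) had 601, 1496 and 1040 counts in replicates 1, 2 and 3 at 72 hpf, against 325, 979 and 407 counts at 48 hpf. As levels these were 130, 334 and 291 CPM at 72 hpf and 69.2, 174 and 112 CPM at 48 hpf. Replicate 2 was the highest and replicate 1 the lowest library at each stage, and replicate 1 at 72 hpf lay below replicate 2 at 48 hpf, so the stages overlapped. The mean was 252 ± 108 CPM at 72 hpf and 118 ± 53.0 CPM at 48 hpf (SD, n = 3 each), a log2 fold change of 1.09 (standard error 0.43).

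For aldh1a2 the unadjusted p-value of edgeR was 0.0370 and the adjusted p-value 0.558, and DESeq2 gave an adjusted p-value of 0.0925, so neither called it. A two-sided exact permutation test of the 3 libraries against 3, which cannot go below 0.1, gave p = 0.2. With each library left out in turn, the log2 fold change stayed between 0.81 and 1.48. The unadjusted p-value was then under 0.05 in 2 of the 6 fits, those without replicate 2 at 48 hpf or without replicate 1 at 72 hpf. Within replicates 1 and 2 the log2 ratio of the means was 0.93, and within replicate 3, the libraries from the BigFoot only, it was 1.38. Here and for the genes below, the value for replicate 3 sets 1 library against 1 and has no spread.

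Because aldh1a2 also marks non-muscle cells of the heart, markers of those cells were read beside it. The 6 epicardial markers (tcf21, wt1a, wt1b, tbx18, bnc2 and cldn11a) were all in the table and summed to 186, 621 and 350 CPM in replicates 1, 2 and 3 at 72 hpf, against 647, 1087 and 446 CPM at 48 hpf. The 8 endothelial and endocardial markers summed to 106, 333 and 86.7 CPM at 72 hpf and 241, 392 and 123 CPM at 48 hpf. Both sums were highest in replicate 2 at each stage, as aldh1a2 was, and the mean of both was lower at 72 hpf, where that of aldh1a2 was higher, with overlap of the stages in all of them. The endothelial and endocardial genes did not all move with their sum. For kdrl the counts were 198, 1044 and 73 at 72 hpf, against 573, 1361 and 197 at 48 hpf. For nfatc1 they were 246, 309 and 209 at 72 hpf, against 222, 199 and 37 at 48 hpf, with the higher mean at 72 hpf, as for aldh1a2. Scaled to the size of the library, nfatc1 was higher in every 72 hpf library than in any 48 hpf library.

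Of the endothelial and endocardial markers, 4 never exceeded 3 counts at 72 hpf, among them fli1a and tie1 with 0 counts at that stage, and 1 never did at 48 hpf. The 6 fibroblast and smooth muscle markers summed to 538, 1475 and 2074 CPM at 72 hpf and 1233, 1011 and 686 CPM at 48 hpf. Their mean was higher at 72 hpf, as that of aldh1a2 was, with overlap. Replicate 1 at 72 hpf was the lowest library of its stage for both, whereas replicate 1 at 48 hpf was the highest of its stage for these markers and the lowest for aldh1a2. The fibroblast and smooth muscle genes did not all move with their sum. The mean was higher at 72 hpf for col1a1a, col1a2 and postnb, and lower for pdgfra, acta2 and tagln. For col1a2 the counts were 215, 1752 and 2378 at 72 hpf, against 1151, 447 and 239 at 48 hpf. For tagln they were 154, 253 and 407 at 72 hpf, against 412, 531 and 249 at 48 hpf. No epicardial or fibroblast marker was at or under 3 counts in all libraries of a stage. The part of these cells in the aldh1a2 difference was not tested.

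**Figure D2:**
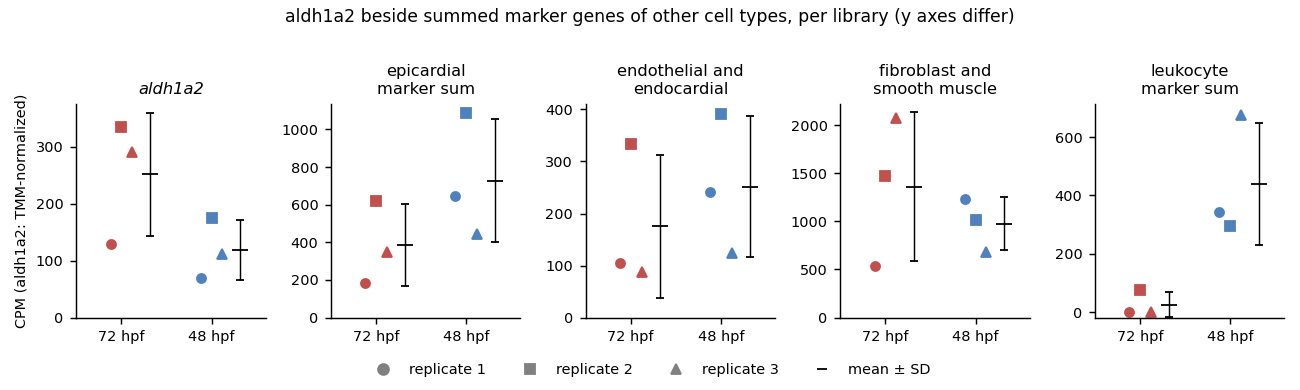
Level of aldh1a2 (left panel, TMM-normalized CPM) and the summed CPM of marker genes of 4 other cell classes (y axes differ) in each library at 72 hpf (red) and 48 hpf (blue), with mean and SD. The epicardial sum was 186 to 621 CPM at 72 hpf and 446 to 1087 CPM at 48 hpf, and the leukocyte sum was 0.280 to 75.0 CPM at 72 hpf and 294 to 678 CPM at 48 hpf.

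The clearest separation of the stages was in dhrs3b (ENSDARG00000044803, chromosome 11 from 28590733 to 28614608, minus strand), which encodes a retinal reductase. It had 184, 175 and 130 counts at 72 hpf, against 386, 411 and 219 counts at 48 hpf. The levels were 39.7, 39.1 and 36.4 CPM at 72 hpf and 82.2, 73.2 and 60.0 CPM at 48 hpf. Every 72 hpf library lay below every 48 hpf library, and the 72 hpf libraries differed from each other by little, with a coefficient of variation of 4.69% at 72 hpf and 15.5% at 48 hpf.

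The mean of dhrs3b was 38.4 ± 1.80 CPM at 72 hpf and 71.8 ± 11.2 CPM at 48 hpf (SD, n = 3 each), which is 1.87-fold lower at 72 hpf by the fitted log2 fold change of -0.90 (standard error 0.26). The unadjusted p-value was 0.00859 and the adjusted p-value 0.411 with edgeR, which did not call it, whereas DESeq2 called it lower with an adjusted p-value of 0.00377. The exact permutation p was 0.1, the smallest that this design allows. Leaving out 1 library at a time gave log2 fold changes between -1.01 and -0.79 and unadjusted p-values of 0.00667 to 0.0444, under 0.05 in 6 of 6 fits, with 0 calls. The log2 ratio was -0.98 for the means of replicates 1 and 2 and -0.72 for the single libraries of replicate 3. The leukocyte sum (0.280 to 75.0 CPM at 72 hpf against 294 to 678 CPM at 48 hpf) and the ventricular and atrioventricular canal sums separated the stages in the same direction, and the part of such cells in the dhrs3b difference was not tested.

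Its paralog dhrs3a (ENSDARG00000044982, chromosome 23 from 21663631 to 21674679, plus strand), known in zebrafish embryos as a gene induced by retinoic acid, had 0, 0 and 0 counts at 72 hpf, against 0, 18 and 0 counts at 48 hpf. Its counts came from replicate 2 at 48 hpf alone, where they made 4.20% of the counts of both paralogs. The remaining 5 libraries held dhrs3b and no count of dhrs3a. The mean share of dhrs3a differed by -1.40 percentage points between the stages (exact permutation p = 1, adjusted over 3 paralog pairs p = 1).

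Among the clearance enzymes, cyp26b1 (ENSDARG00000077121, chromosome 7 from 25323742 to 25348597, plus strand) was the only one above 3 counts in more than 1 library. It had 55, 13 and 0 counts at 72 hpf, against 77, 200 and 3 counts at 48 hpf. Libraries of one stage differed more than the stages did, and replicate 3 was at or below the floor of 3 counts at both. The mean was 4.93 ± 6.19 CPM at 72 hpf and 17.6 ± 17.4 CPM at 48 hpf (SD, n = 3 each).

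The fitted log2 fold change of cyp26b1 was -1.83 (standard error 1.73, adjusted p = 0.833 with edgeR and 0.660 with DESeq2, exact permutation p = 0.3). Without replicate 2 at 48 hpf it was -0.80, and without replicate 1 at 72 hpf it was -3.56. The gene was thus read in some libraries of each stage. A stage difference was not detectable at this low RNA input, depth and spread.

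The gene cyp26a1 (ENSDARG00000033999, chromosome 12 from 8954761 to 8958353, minus strand), a strongly retinoic acid-induced member of the family in vertebrate embryos, had 0, 0 and 0 counts at 72 hpf, against 21, 0 and 0 counts at 48 hpf. The third member, cyp26c1 (ENSDARG00000056029, chromosome 17 from 19522856 to 19535328, minus strand), had 0, 0 and 0 counts at 72 hpf, against 0, 6 and 0 counts at 48 hpf. Each was read in a single library, replicate 1 at 48 hpf for cyp26a1 and replicate 2 at 48 hpf for cyp26c1. In the other 5 libraries a level of up to the floor, at most 0.839 CPM, is not excluded for either gene.

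The receptors were read mainly as rarab, rarga and raraa. The gene rarab (ENSDARG00000034893, chromosome 3 from 33065613 to 33259621, minus strand), which encodes a retinoic acid receptor alpha, had 168, 470 and 151 counts at 72 hpf, against 372, 544 and 274 counts at 48 hpf. The levels were 36.3, 105 and 42.2 CPM at 72 hpf, against 79.2, 96.9 and 75.1 CPM at 48 hpf. Replicate 2 at 72 hpf was the highest of the 6 libraries, and the other 72 hpf libraries lay below all 48 hpf libraries.

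For rarab the mean was 61.2 ± 38.1 CPM at 72 hpf and 83.7 ± 11.6 CPM at 48 hpf (SD, n = 3 each), with a log2 fold change of -0.45 (standard error 0.42, adjusted p = 0.829 with edgeR and 0.701 with DESeq2, exact permutation p = 0.4). The estimate depended on replicate 2 at 72 hpf, and without that library it was -1.09 with an unadjusted p-value of 0.00734 (adjusted p = 0.331 with edgeR). Without any other single library it lay between -0.52 and -0.18. The log2 ratio of the means was -0.32 within replicates 1 and 2 and -0.83 within replicate 3.

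The alpha paralog raraa (ENSDARG00000056783, chromosome 12 from 10952794 to 11157237, plus strand) had 26, 82 and 57 counts at 72 hpf, against 88, 190 and 156 counts at 48 hpf. The levels were 5.62, 18.3 and 15.9 CPM at 72 hpf and 18.7, 33.9 and 42.8 CPM at 48 hpf. The stages did not overlap, but replicate 2 at 72 hpf and replicate 1 at 48 hpf lay close together.

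The mean of raraa was 13.3 ± 6.75 CPM at 72 hpf and 31.8 ± 12.1 CPM at 48 hpf (SD, n = 3 each), a log2 fold change of -1.26 (standard error 0.64). The unadjusted p-value of edgeR was 0.0877, the adjusted p-value 0.608 with edgeR and 0.271 with DESeq2, and the exact permutation p was 0.1, the smallest possible. In the fits without 1 library the log2 fold change lay between -1.55 and -0.89 and the unadjusted p-value between 0.0709 and 0.227. The log2 ratio of the means of raraa was -1.14 within replicates 1 and 2 and -1.42 within replicate 3, and the part of the cell types whose marker sums separated the stages was not tested here either. The share of raraa in the counts of both alpha paralogs was 13.4%, 14.9% and 27.4% at 72 hpf and 19.1%, 25.9% and 36.3% at 48 hpf, with overlap (exact permutation p = 0.3, adjusted over 3 pairs p = 0.45).

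Of the gamma receptors, rarga (ENSDARG00000034117, chromosome 23 from 35847200 to 35963735, plus strand) had 201, 274 and 56 counts at 72 hpf, against 287, 476 and 201 counts at 48 hpf. The levels were 43.4, 61.2 and 15.7 CPM at 72 hpf and 61.1, 84.8 and 55.1 CPM at 48 hpf. Replicate 3 at 72 hpf was the lowest library, and replicate 2 at 72 hpf lay beside replicate 1 at 48 hpf, so that the stages overlapped.

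The mean of rarga was 40.1 ± 23.0 CPM at 72 hpf and 67.0 ± 15.7 CPM at 48 hpf (SD, n = 3 each), with a log2 fold change of -0.74 (standard error 0.49, adjusted p = 0.711 with edgeR and 0.492 with DESeq2, exact permutation p = 0.3). Without replicate 3 at 72 hpf the log2 fold change was -0.35, and without replicate 2 at 72 hpf it was -1.17. The log2 ratio of the means was -0.48 within replicates 1 and 2 and -1.81 within replicate 3.

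The paralog rargb (ENSDARG00000054003, chromosome 11 from 2089461 to 2096469, plus strand) had 0, 0 and 0 counts at 72 hpf, against 1, 1 and 13 counts at 48 hpf. Only replicate 3 at 48 hpf exceeded 3 counts. Of the counts of both gamma paralogs, rarga held 100% in the 3 libraries at 72 hpf and 99.7%, 99.8% and 93.9% at 48 hpf (exact permutation p = 0.1, adjusted over 3 pairs p = 0.3). With 0 counts of rargb, a share of up to 1.49%, 1.09% and 5.36% is allowed in replicates 1, 2 and 3 at 72 hpf, so the values at 48 hpf other than replicate 3 are within that limit.

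Summed over the 4 receptor genes, the level was 115 ± 60.9 CPM at 72 hpf and 184 ± 29.0 CPM at 48 hpf (SD, n = 3 each, exact permutation p = 0.3), with overlap. Of the 6 genes tested, the 72 hpf libraries all lay below those of 48 hpf in 2 (dhrs3b and raraa) and all above in 0, where 9.32% of all genes tested were below and 7.24% above.

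**Figure D3:**
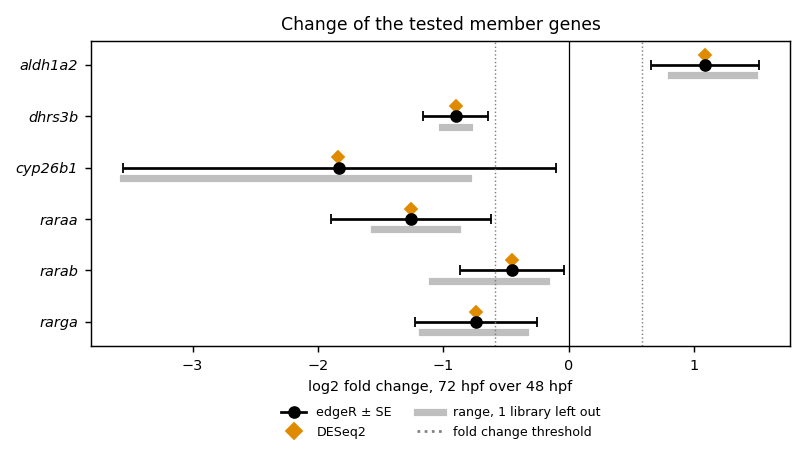
Log2 fold change of the 6 genes tested, 72 hpf over 48 hpf, as fitted by edgeR (black, with 1 standard error) and by DESeq2 (orange), and the range when each library was left out in turn (grey). The estimate for aldh1a2 is 1.09 and that for dhrs3b -0.90, and the bar of cyp26b1 is the widest, with a standard error of 1.73.

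Other genes of the pathway came from a list of 73 symbols, of which 8 were not analysed here. The others named 66 genes, and 47 passed the filter. Binding proteins carry retinoids in the cell, the dehydrogenases listed act on retinol or retinal, Rxr proteins are the partners of Rar, and coregulators link the receptors to chromatin. Among the 47, edgeR called 0 higher and 0 lower, and at an unadjusted p-value under 0.05 none was higher and 6 were lower (rdh10b, crabp1b, rbp2a, meis1a, nrip1b and hoxb4a), beside 3.12% higher and 5.63% lower among all genes. DESeq2 called 4 of them lower (rdh10b, crabp1b, rbp2a and meis1a) and 0 higher, beside 2.88% lower and 1.27% higher among all genes. Of these genes rbp2a and hoxb4a had 0 counts in all 72 hpf libraries and passed the filter through 48 hpf alone, so they could only come out lower. A higher estimate at 72 hpf was found in 15 of the 47 (31.9%), against 48.4% of all genes tested, and the median log2 fold change was -0.38 against -0.02. Of the 47, 3 genes (rbp2a, hoxb4a and dhrs9) had 0 counts in all 72 hpf libraries, so their direction was fixed by the filter. None of the 47 had 0 counts in all 48 hpf libraries. Among all 16100 genes tested, 454 had 0 counts in all 72 hpf libraries and 121 in all 48 hpf libraries. The medians were -0.46 for 11 genes of uptake, storage and binding, -0.31 for 10 dehydrogenases, -0.23 for 5 Rxr genes, -0.38 for 7 coregulators and -0.60 for 14 genes that respond to retinoic acid. Setting genes with 0 counts at 72 hpf to their bound could not move these medians, because the bounds also lie below them. Responsive genes counted in every library had log2 fold changes of 0.10 (nr2f1a), 0.15 (tbx5a), 0.06 (tgm2b), -0.21 (meis1b), -0.53 (pbx1a) and -1.02 (meis1a). For the genes named meis2a, also counted in every library, they were 0.01 and -0.82. The rest had 0 counts in some libraries, with log2 fold changes from -7.78 (hoxb4a, 0 counts at 72 hpf) to 0.97 (hoxb1b). The leukocyte, ventricular and atrioventricular canal marker sums were also lower at 72 hpf without overlap, and their part in these counts and medians, and in any gene of the lists, was not tested.

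For the retinol dehydrogenase gene rdh10b, on chromosome 2 from 30182431 to 30186307, the libraries held 251, 237 and 236 counts at 72 hpf, against 599, 579 and 372 counts at 48 hpf. Its level was 57.7 ± 7.20 CPM at 72 hpf and 111 ± 14.5 CPM at 48 hpf (SD, n = 3 each), without overlap and with a log2 fold change of -0.94 (standard error 0.21). The unadjusted p-value was 0.0022 and the adjusted p-value 0.332 with edgeR, and DESeq2 called it lower with an adjusted p-value of 0.000192. The log2 fold change was between -1.04 and -0.83 when 1 library was left out, with an unadjusted p-value under 0.05 in 6 of 6 fits, and the log2 ratio of the means was -1.11 within replicates 1 and 2 and -0.63 within replicate 3. In mammals the proteins Rdh10 and Dhrs3 form a complex in which each raises the activity of the other. Here rdh10b and dhrs3b were the retinol and retinal enzyme genes that DESeq2 called lower, and edgeR called neither. A link between their RNA differences, or to such a complex, was not tested.

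For the paralog rdh10a, on chromosome 24 from 13251480 to 13272843, the libraries held 261, 1141 and 397 counts at 72 hpf, against 732, 1425 and 482 counts at 48 hpf. Its stages overlapped, with 141 ± 103 CPM at 72 hpf and 181 ± 64.6 CPM at 48 hpf (SD, n = 3 each) and a log2 fold change of -0.36 (adjusted p = 0.922 with edgeR). Without replicate 1 at 72 hpf it was 0.02, and without replicate 2 at 72 hpf it was -1.11, so the direction depended on single libraries. Replicate 2 was the highest library of rdh10a at each stage, as it was for aldh1a2.

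Of the binding proteins, crabp1b, which encodes a cellular retinoic acid binding protein, had 12, 85 and 17 counts at 72 hpf, against 199, 439 and 138 counts at 48 hpf. Its level was 8.78 ± 8.91 CPM at 72 hpf and 52.8 ± 22.1 CPM at 48 hpf (SD, n = 3 each), and the stages did not overlap. The fitted log2 fold change was -2.58 ± 0.80 (standard error), the adjusted p-value 0.442 with edgeR and 0.0148 with DESeq2, which called it lower. The log2 fold change lay between -3.84 and -2.15 when 1 library was left out, and the log2 ratio of the means was -2.48 within replicates 1 and 2 and -2.99 within replicate 3.

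The retinol binding protein gene rbp2a had 0, 0 and 0 counts at 72 hpf, against 12, 18 and 27 counts at 48 hpf. Its 48 hpf mean was 6.06-fold above a floor of 3 counts per library at 72 hpf, a limit that covers counting error only. It passed the filter through 48 hpf alone and could only come out lower (adjusted p = 0.473 with edgeR and 0.0199 with DESeq2). For crabp2b, 72, 0 and 0 counts at 72 hpf stood against 110, 123 and 95 at 48 hpf, so that 1 library at 72 hpf held the gene, at 15.6 CPM against 21.9 to 26.0 CPM at 48 hpf, and the other 2 held no count of it (adjusted p = 0.795 with edgeR and 0.600 with DESeq2).

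**Figure D4:**
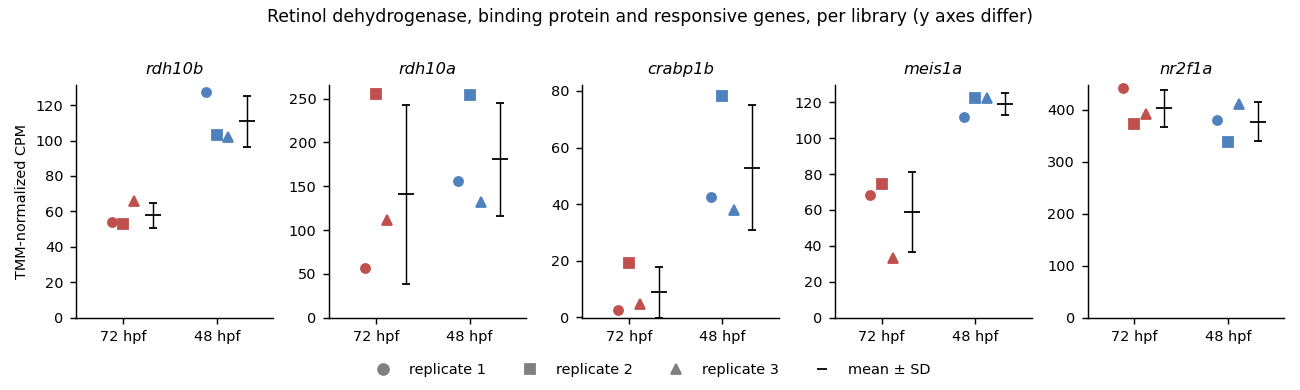
TMM-normalized CPM (y axes differ) of 5 other pathway genes in the libraries at 72 hpf (red) and 48 hpf (blue), with mean and SD. The stages are apart for rdh10b, crabp1b and meis1a, and overlap for rdh10a and for nr2f1a, which had 402 ± 35.7 CPM at 72 hpf and 377 ± 37.2 CPM at 48 hpf.

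Among genes that respond to retinoic acid in embryos, meis1a, which encodes a homeodomain partner of Hox proteins, had 317, 334 and 119 counts at 72 hpf, against 526, 688 and 447 counts at 48 hpf. Its level was 58.8 ± 22.3 CPM at 72 hpf and 119 ± 6.08 CPM at 48 hpf (SD, n = 3 each), without overlap. The fitted log2 fold change was -1.02 (standard error 0.31, adjusted p = 0.437 with edgeR, and 0.0262 with DESeq2, which called it lower). The log2 ratio of the means was -0.71 within replicates 1 and 2 and -1.88 within replicate 3. Its paralog meis1b had 281 ± 56.6 CPM at 72 hpf and 325 ± 54.3 CPM at 48 hpf, with a log2 fold change of -0.21 (adjusted p = 0.829 with edgeR).

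The atrial identity gene nr2f1a had 2047, 1670 and 1401 counts at 72 hpf, against 1788, 1894 and 1502 counts at 48 hpf, and its log2 fold change was 0.10 (standard error 0.12, adjusted p = 0.905 with edgeR). For tbx5a, a T-box gene of the heart field, the log2 fold change was 0.15 (standard error 0.17, adjusted p = 0.880 with edgeR). Both were read in every library with overlapping stages. The counts of nr2f1a and of tbx5a (932 to 1292) varied less than the library totals, as did those of nppb, so neither is read as unchanged. The hox gene hoxb4a had 0, 0 and 0 counts at 72 hpf, against 0, 27 and 50 counts at 48 hpf (adjusted p = 0.565 with edgeR and 0.122 with DESeq2), and hoxb1a and hoxa5a had no count in any library.

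The receptor partner genes rxrba, rxrbb, rxrga and rxrgb were read in all 6 libraries. For rxrba the level was 75.6 ± 13.7 CPM at 72 hpf and 73.9 ± 31.8 CPM at 48 hpf (SD, n = 3 each), a log2 fold change of 0.03 (standard error 0.34). Of these 4 genes, the largest difference was in rxrga, with 27.5 ± 5.07 CPM at 72 hpf and 57.5 ± 37.7 CPM at 48 hpf, a log2 fold change of -1.06 (standard error 0.51, adjusted p = 0.592 with edgeR and 0.266 with DESeq2). Without replicate 3 at 48 hpf, which held 99.5 CPM of rxrga against 26.4 and 46.5 in the other libraries of that stage, it was -0.40. The partner gene rxraa had 0, 35 and 0 counts at 72 hpf, against 51, 26 and 59 counts at 48 hpf, with overlap and a larger estimated fold than rxrga (standard error of the log2 fold change 1.99, adjusted p = 0.846 with edgeR). Of the coregulator genes, ncor1 encodes a corepressor protein that Rar binds without ligand. Its level was 389 ± 6.89 CPM at 72 hpf and 354 ± 38.8 CPM at 48 hpf, with a log2 fold change of 0.14 (adjusted p = 0.799 with edgeR). The corepressor gene nrip1b had a log2 fold change of -0.53 (standard error 0.22, adjusted p = 0.565 with edgeR and 0.188 with DESeq2), with overlapping stages.

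**Figure D5:**
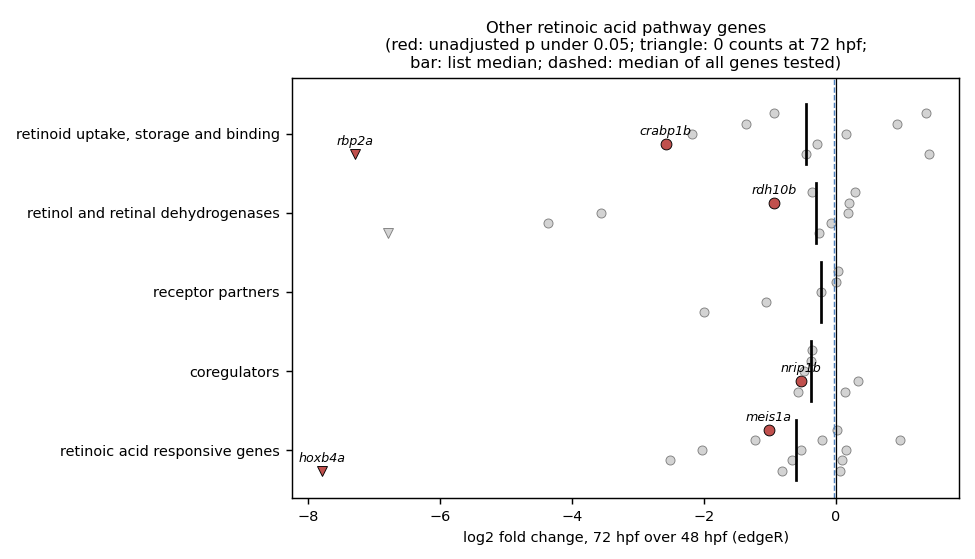
Log2 fold change, 72 hpf over 48 hpf, of the 47 other pathway genes tested, by list. The 6 genes with an unadjusted p-value under 0.05 (red) all lie below 0, and triangles are genes with 0 counts at 72 hpf, whose fitted values are no bound. List medians are bars between -0.60 and -0.23.

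The genes whose levels ran most closely with aldh1a2 over the 6 libraries were hist1h2a1 (Pearson r = 0.991), tspan2a (r = 0.986) and ccdc12 (r = 0.982), on log2(CPM + 0.5) among all genes tested. The first had only 3 to 11 counts in each library, and the 6 points share their stage and library composition, so these values describe likeness only. For tspan2a, a tetraspanin gene, there were 92, 266 and 235 counts at 72 hpf, against 39, 204 and 55 counts at 48 hpf. Among the other tested genes of the pathway core, r with aldh1a2 was -0.73 for dhrs3b, -0.45 for cyp26b1, -0.38 for rarga, -0.06 for raraa and 0.03 for rarab.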

How the data were processed

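Read counts per gene, as whole numbers with no normalization, were deposited by the authors in a single table. Per the labels and methods, libraries were made with the SMART-Seq HT kit. Trimmomatic 0.39 was used for trimming of the single-end reads, STAR 2.7.10a for alignment to danRer11, Picard 3.0.0 for removal of duplicates and featureCounts 2.0.4 for counting over exons. Multi-mapping, mitochondrial and ribosomal reads, and those on several genes, were dropped. Use of strand is not given in the sources used here, but no other gene of the table overlaps the span of any of the 10 genes. Duplicate removal can limit abundant genes, and the loss of multi-mapping reads can lower close paralogs.

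The test was edgeR 4.0.16 under R 4.3.3 (TMM, quasi-likelihood test with robust moderation) for genes with a mean normalized count above 5, with Benjamini-Hochberg adjustment over 16100 genes. A standard error is the size of the log2 fold change over the root of its F statistic. Calls used the thresholds of the study's methods. Alternatives used DESeq2 1.42.0, limma 3.58.1 with voom, RLE factors, no filter, filterByExpr, no fold change threshold, a replicate block, the sorter as covariate, and each library left out. Tested on simulated data, edgeR's fold changes followed those put in but it called a minority of the changed genes. DESeq2 called more unchanged than changed genes there. That split depends on how many genes were changed, and on the spread between libraries, which was drawn from edgeR's own estimates. Totals were 3577234 to 5629941 counts. Libraries were grouped by stage from their titles. Same-numbered libraries of the stages hold cells of different embryos, and cells were collected over several sorting sessions. The study states in general that independent batches of animals were used, but not which batch or session gave which library, so p-values measure the spread between these samples. All 10 genes are named, and of the listed pathway genes those with an unadjusted p-value under 0.05 or a DESeq2 call; crabp2b, rdh10a, meis1b, nr2f1a, tbx5a, ncor1, rxraa, rxrba, rxrbb, rxrga, rxrgb, hoxb1a and hoxa5a were named after their values were seen. Members and lists were chosen with earlier results of these data known.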

Additional observations from a re-analysis of the deposited data

How the results depend on the processing

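The 6 tested genes kept the direction of their fold change in all 78 fits of a gene under the 13 alternative fits, and none became a call except dhrs3b, which DESeq2 called lower (log2 fold change -0.90), so that DESeq2 called 1 of the genes lower where edgeR called 0. Over all genes, edgeR called 1 gene higher and 0 lower, against 204 and 463 with DESeq2 and 2 and 9 without a filter on low counts. The number called higher was 0 with limma voom, with the replicate block and with the sorter as covariate, and 0 to 1 when a library was left out. Other pathway genes past an unadjusted p-value of 0.05 and lower were 10 with DESeq2 against 6 with edgeR, and those called lower were 4 against 0. Over all genes tested, the deviations of same-numbered libraries from their stage means were weakly correlated (r = -0.01, 0.10 and 0.01 for numbers 1, 2 and 3). Such a value cannot exclude shared deviation in single genes, and replicate 2 was the highest library of aldh1a2 and rdh10a at each stage. The numbers were not taken as pairs in the main test. With the replicate block the log2 fold change was 1.08 for aldh1a2 and -0.89 for dhrs3b, and no call among the members changed. The causes of these differences were not tested. With 3 libraries a stage, and counts of 0 to 200 for cyp26b1, the spread between libraries limits what can be seen for the low genes.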

Other observations

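Some listed genes were read in few libraries. The retinol dehydrogenase gene rdh8a had 0, 19 and 0 counts at 72 hpf, against 99, 384 and 1 counts at 48 hpf (log2 fold change -4.36, standard error 2.14, adjusted p = 0.600 with edgeR). Without replicate 2 at 48 hpf the log2 fold change of rdh8a was -2.89, and without replicate 2 at 72 hpf no count of it was left at that stage. The dehydrogenase gene dhrs9 had 0, 0 and 0 counts at 72 hpf, against 14, 35 and 0 at 48 hpf. For the serum retinol carrier gene rbp4 the counts were 0, 152 and 423 at 72 hpf, against 276, 117 and 0 at 48 hpf, with 1 library at 0 in each stage. The orphan receptor gene nr2f5 had 0, 126 and 56 counts at 72 hpf, against 306, 577 and 43 at 48 hpf (log2 fold change -2.04, standard error 1.38, adjusted p = 0.721 with edgeR). These genes were chosen after their values were seen.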
